A study of Mus musculus with 4 samples.

Results

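The genes described are those of the pentose phosphate pathway together with NADP-linked malic enzyme and isocitrate dehydrogenase of the cytosol, which supply the cell with NADPH. They were chosen by name for their function, with earlier results of these data known. The genes were G6pdx, H6pd, Pgls and Pgd of the oxidative branch, Tkt, Taldo1, Rpia and Rpe of the non-oxidative branch, and Me1 and Idh1. Of these 10 genes, 8 had at least 1 probe set annotated to that gene alone, 12 probe sets in all, among 17097 genes read by 28898 such probe sets. G6pdx and Rpe were not analysed here. The cells were B16F10, a pigmented mouse melanoma line, on 4 arrays. The arrays called plumbagin 1 and plumbagin 2 held RNA of cells kept for 24 h with 2 µM plumbagin, which is a naphthoquinone made by plants. The arrays called control 1 and control 2 held RNA of cells given MilliQ water, which is 0 µM plumbagin. No gene was altered in either group according to the labels, and whether samples of a group were separate cultures is not stated, so p-values measure the spread between these arrays, which may be technical.

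NADPH is the electron donor for glutathione and thioredoxin reductases, for fatty acid and sterol synthesis, and for quinone reductases. Glucose-6-phosphate dehydrogenase, lactonase and 6-phosphogluconate dehydrogenase turn glucose 6-phosphate into ribulose 5-phosphate and make NADPH on the way. Isomerase, epimerase, transketolase and transaldolase then interconvert the sugar phosphates, so that the carbon goes to ribose for nucleotides or back to glycolysis. Redox-cycling quinones such as plumbagin can draw on NADPH, and several of these genes are known targets of the antioxidant transcription factor NRF2 in mouse.

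Promoters are shown for G6pdx and for Pgd, Taldo1, Tkt, Me1 and Idh1, which were picked because they differed together between arrays in these data. Every listed start from RefSeq, build GRCm38.p6, is given. Each stretch holds the 100 bases before the annotated transcription start and the first 12 bases from it, 5′ to 3′ on the gene's strand. Capitals mark letters that match the core of the antioxidant response element to which NRF2 binds, searched as TGACNNNGC on both strands.
G6pdx, chrX:74428869-74428980, strand -: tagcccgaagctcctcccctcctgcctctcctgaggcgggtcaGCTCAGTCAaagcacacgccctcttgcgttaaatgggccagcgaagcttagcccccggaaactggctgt
Pgd, chr4:149166694-149166805, strand -: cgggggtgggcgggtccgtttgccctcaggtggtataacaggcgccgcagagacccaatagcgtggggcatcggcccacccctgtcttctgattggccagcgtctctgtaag
Pgd, second start, chr4:149166071-149166182, strand -: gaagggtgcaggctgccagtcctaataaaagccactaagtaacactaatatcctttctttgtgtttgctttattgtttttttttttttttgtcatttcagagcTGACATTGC
Taldo1, chr7:141392060-141392171, strand +: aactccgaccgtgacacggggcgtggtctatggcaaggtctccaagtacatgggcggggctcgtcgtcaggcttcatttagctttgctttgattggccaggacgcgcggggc
Tkt, chr14:30549031-30549142, strand +: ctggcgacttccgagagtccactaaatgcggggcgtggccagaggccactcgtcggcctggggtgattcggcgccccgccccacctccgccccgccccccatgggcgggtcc
Me1, chr9:86695903-86696014, strand -: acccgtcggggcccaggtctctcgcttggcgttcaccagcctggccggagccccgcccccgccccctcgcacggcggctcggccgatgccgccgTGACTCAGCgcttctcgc
Me1, second start, chr9:86687266-86687377, strand -: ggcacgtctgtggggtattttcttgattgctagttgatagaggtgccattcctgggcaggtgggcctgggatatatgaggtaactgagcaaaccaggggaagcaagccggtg
Idh1, chr1:65186468-65186579, strand -: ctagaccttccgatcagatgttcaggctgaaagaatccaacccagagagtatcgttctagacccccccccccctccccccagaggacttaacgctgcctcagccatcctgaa
Idh1, second start, chr1:65179131-65179242, strand -: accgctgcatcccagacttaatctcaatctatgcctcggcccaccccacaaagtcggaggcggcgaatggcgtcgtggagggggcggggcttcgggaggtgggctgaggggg
All 10 genes had an entry, with 13 windows of 300 bases. The core motif was present in 3 of the 13 windows (23.1%), against 4071 of 32851 windows of all genes (12.4%). In the G6pdx window it lay on the opposite strand and began 57 bases before the start. In the window of the first Me1 start it began 6 bases before the start. In that of the second Pgd start it began 3 bases past the start, within the transcribed letters. No match lay before either Pgd start, and whether the second has a promoter of its own was not tested. No match was found in the windows of Taldo1, Tkt, either Idh1 start, the first Pgd start or the second Me1 start. A match describes the letters in the window and shows no binding. The part of NRF2 in the differences between arrays was not tested.

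The values are log2 expression after RMA, a normalization that makes the arrays' distributions alike. The median of all probe sets lay between 4.32 and 4.39 on the 4 arrays. A level of 5.05, the 95th percentile of 41 odorant receptor genes assumed to be silent here, served as background, and all 8 measured members lay above it with means from 6.90 to 10.16. Levels of different probe sets depend on their probes and were not ranked against each other. The cell label was checked with markers: all 8 melanocyte markers, among them Tyr, Tyrp1, Dct, Pmel and Mlana, had means between 10.85 and 12.32, while 1 of 6 leukocyte markers (Cd3e), 0 of 6 fibroblast and endothelial markers and 0 of 5 keratinocyte markers lay above background. Plumbagin 1 stood apart in its hybridization spike-ins, with a mean of 9.79 against 8.96 on plumbagin 2, 8.73 on control 1 and 9.04 on control 2. Plumbagin 2 and control 2 were closest over all probe sets (Pearson r = 0.998 across probe sets), while the other 5 pairs of arrays had r between 0.992 and 0.994.

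The first comparison asked whether the genes differed after plumbagin. None of the 8 measured members passed in limma, the linear model fitted over all 17097 genes (adjusted p = 1 for each), and 0% of all genes passed. At an unadjusted p under 0.05 there were 169 genes (0.988%) and 0 members. Of the 8, 4 had a higher and 4 a lower mean after plumbagin, with a median difference of -0.02 on the log2 scale, against -0.01 over all genes and -0.06 over the 4574 genes in the members' range of brightness. An array reads a whole culture, so fewer cells of a kind and less RNA per cell cannot be told apart.

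In the oxidative branch, Pgd, which encodes 6-phosphogluconate dehydrogenase and makes the pathway's second NADPH, had log2 values of 9.09 and 8.42 on plumbagin 1 and 2, against 8.95 and 8.15 on control 1 and 2. The groups overlapped, and each number-1 array was above both number-2 arrays. Pgd differed by 0.20 ± 0.36 (log2, SE, n = 2 per group), with a 95% interval from -0.77 to 1.17. Number was not in this fit, so any gap between the numbers widens the SE and interval, here and for the other members. Pgls, the lactonase between the dehydrogenases, had 9.26 and 9.20 on the plumbagin arrays, against 9.47 and 9.34 on the controls. Both plumbagin values were below both control values, and the difference was -0.18 ± 0.09 (95% interval -0.42 to 0.07). H6pd, the dehydrogenase that makes NADPH inside the endoplasmic reticulum, had 6.90 and 6.83 with plumbagin, against 7.01 and 6.85 in controls. These groups overlapped, with a difference of -0.07 ± 0.10 (95% interval -0.33 to 0.19).

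In the non-oxidative branch, Tkt, the transketolase that moves carbon units between sugar phosphates, had values of 10.22 and 10.05 on plumbagin 1 and 2, against 10.34 and 10.03 on control 1 and 2. The groups overlapped, and the difference was -0.05 ± 0.14 (95% interval -0.44 to 0.34). Taldo1, the transaldolase that works beside it, had 9.29 and 8.80 with plumbagin, against 9.30 and 8.75 in controls. The groups overlapped, both number-1 arrays were above both number-2 arrays, and the difference was 0.02 ± 0.27 (95% interval -0.69 to 0.73). Rpia, the isomerase that forms ribose 5-phosphate, had 7.65 and 7.77 on the plumbagin arrays, against 7.92 and 7.80 on the controls. Both plumbagin values were below both control values, by only 0.02 between plumbagin 2 and control 2, and the difference was -0.15 ± 0.10 (95% interval -0.41 to 0.11).

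Of the cytosolic NADPH sources outside the pathway, Me1, the malic enzyme that turns malate into pyruvate, had 8.66 and 8.45 with plumbagin, against 8.72 and 8.26 in controls. Its groups overlapped, with a difference of 0.06 ± 0.19 (95% interval -0.45 to 0.58). Idh1, the cytosolic and peroxisomal isocitrate dehydrogenase, had 7.74 and 7.21 with plumbagin, against 7.57 and 7.00 in controls. The groups overlapped here too, and the difference was 0.19 ± 0.28 (95% interval -0.56 to 0.94). Both plumbagin arrays lay below both controls in 2 of the 8 members, Pgls and Rpia, against 15.2% of all genes, and above both controls in 0 of the 8, against 10.2% of all genes.

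**Figure D1:**
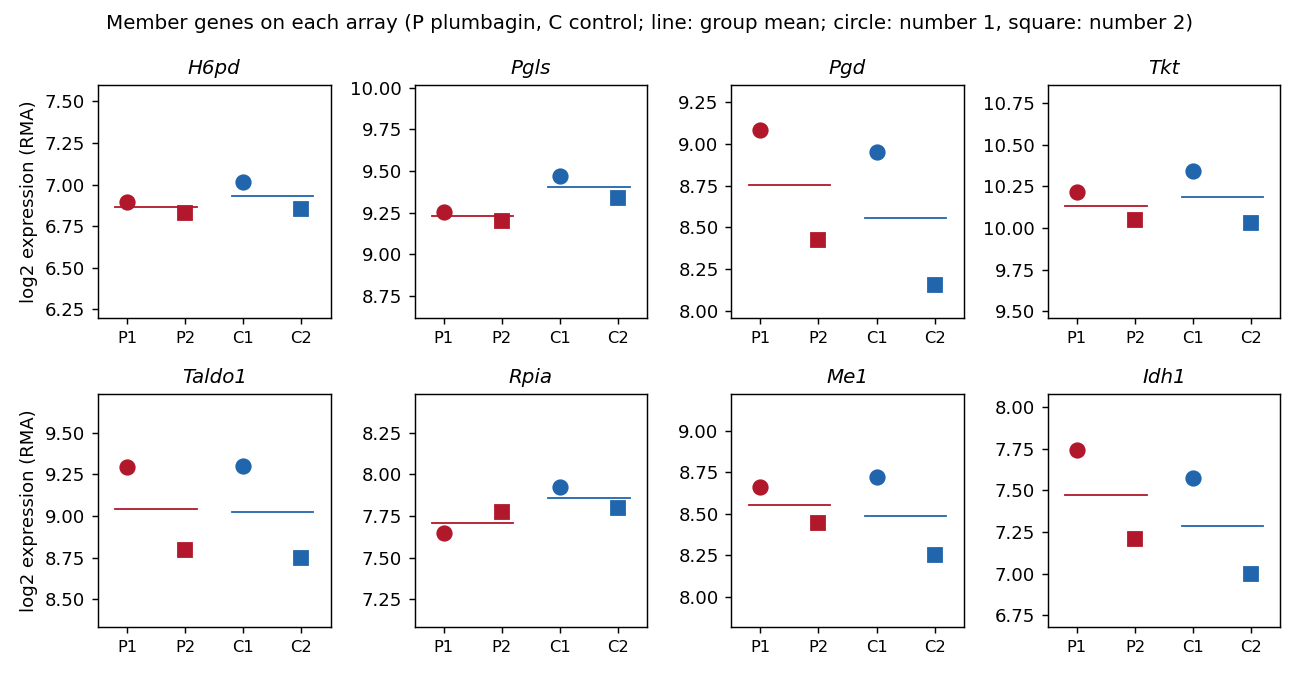
Log2 expression of the 8 measured members on each array, plumbagin (red) left of control (blue), with circles for number 1, squares for number 2 and a line at each group's mean. Every panel spans the same number of log2 units, so that the gap between circles and squares in Pgd, Taldo1 and Idh1 can be set against the small gap between the group lines.

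The direction of the mean difference turned with the arrays used in 6 of the 8 genes. Without plumbagin 1 the differences of Pgd, Taldo1, Me1 and Idh1 were -0.13, -0.23, -0.04 and -0.08, and without control 2 they were -0.20, -0.26, -0.17 and -0.10. Without control 1 they were 0.60, 0.30, 0.30 and 0.47, and without plumbagin 2 they were 0.53, 0.27, 0.17 and 0.46. Tkt was 0.105 without control 1 and 0.03 without plumbagin 2, and H6pd was 0.01 without control 1. Pgls and Rpia were below 0 with each array left out in turn, between -0.24 and -0.11 for Pgls and between -0.21 and -0.09 for Rpia.

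Within each number, 1 plumbagin array was set against 1 control array, which gives no test. Pgd was higher with plumbagin in both numbers, by 0.13 between plumbagin 1 and control 1 and by 0.27 between plumbagin 2 and control 2, and Idh1 was higher in both, by 0.17 and 0.21. Pgls, H6pd and Rpia were lower in both numbers, Pgls by -0.21 in number 1 and -0.14 in number 2. Me1 differed by -0.06 in number 1 and 0.19 in number 2, Tkt by -0.12 and 0.02, and Taldo1 by -0.01 and 0.05. The median over the 8 genes was -0.09 in number 1 and 0.03 in number 2, against -0.14 and -0.0014 over the genes in the same range of brightness. A difference beyond 0.25 in size was found in number 1 for Rpia alone (1 of 8, against 23% of all genes) and in number 2 for Pgd alone (1 of 8, against 3.3% of all genes). Whether the response differed between the numbers could not be tested with 1 array in each cell of the design.

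**Figure D2:**
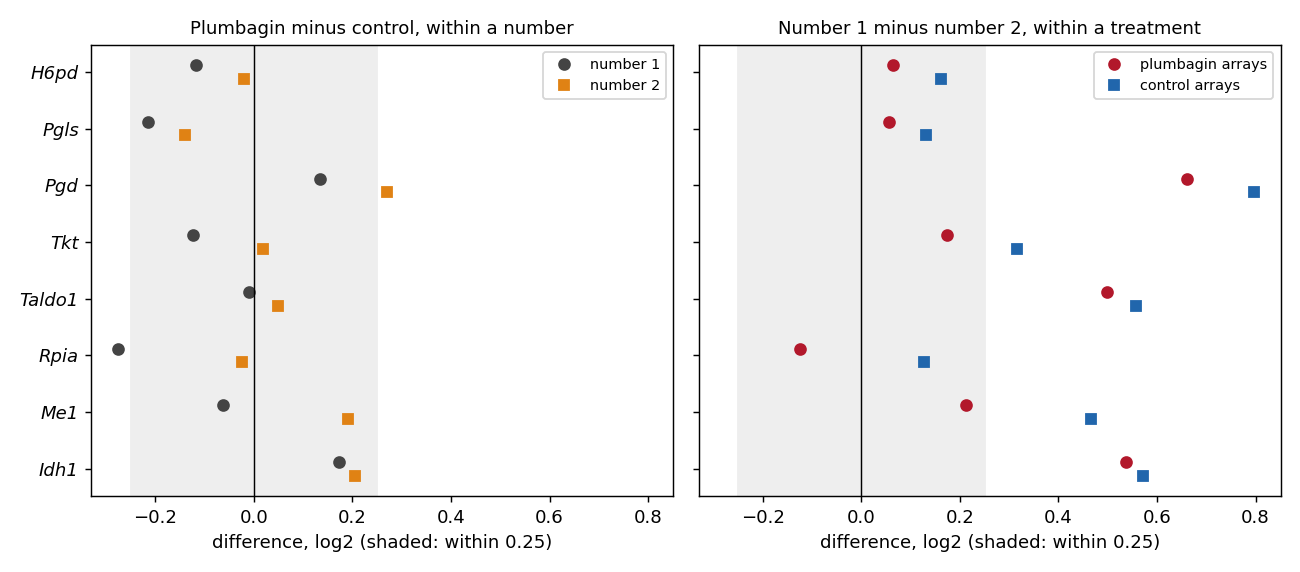
Differences of the 8 measured members between single arrays on the log2 scale, with the band within 0.25 shaded. On the left, plumbagin minus control within each number stays between -0.28 and 0.27, and on the right, number 1 minus number 2 within each treatment reaches 0.66 in the plumbagin arrays and 0.80 in the control arrays, both for Pgd.

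Array number went with larger differences than treatment did. Over the 8 genes the mean absolute difference was 0.14 within number 1 and 0.11 within number 2, while it was 0.29 between the plumbagin arrays and 0.39 between the controls. Number 1 was compared with number 2 in a limma fit with treatment as a covariate, which leaves 1 residual degree of freedom. The labels give no meaning to the number. All 8 members had a higher fitted value in number 1, with a median of 0.29 against 0.03 over all genes and -0.03 over genes in the same range of brightness. No member and 0% of all genes passed after adjustment over 17097 genes, where 2698 genes had an unadjusted p under 0.05. Number 1 was higher at that unadjusted threshold in 5 of the 8 members, Pgd, Taldo1, Idh1, Me1 and Tkt, against 7.56% of all genes. That share counts dim genes too. In either direction, 2347 of the 8637 genes above background and 1386 of the 4574 in the members' range of brightness had such a p. Tkt lay nearest the threshold, with an unadjusted p of 0.0464 in this limma fit and 0.0866 fitted on genes above background. Over the alternatives it ranged from 0.0236 (cyclic loess) to 0.108 (probe sets averaged).

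Pgd had the widest gap of the 8, with 9.09 and 8.95 in number 1 (plumbagin 1 and control 1), against 8.42 and 8.15 in number 2 (plumbagin 2 and control 2). It was 0.73 ± 0.08 higher in number 1 (log2, SE, 1.66-fold, 95% interval 0.49 to 0.96, adjusted p = 0.167). Idh1 was 0.55 ± 0.08 higher (1.47-fold, 95% interval 0.34 to 0.77, adjusted p = 0.167), by 0.54 in the plumbagin arrays and 0.57 in the controls. Taldo1 was 0.53 ± 0.08 higher (1.44-fold, 95% interval 0.31 to 0.75, adjusted p = 0.167), by 0.50 in the plumbagin arrays and 0.56 in the controls. In these 3 genes the gap had the same direction with and without plumbagin and was wider in the controls, a difference that could not be tested.

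Me1 was 0.34 ± 0.10 higher in number 1 (1.27-fold, 95% interval 0.06 to 0.62, adjusted p = 0.261), by 0.21 in the plumbagin arrays and 0.47 in the controls. Tkt was 0.24 ± 0.08 higher (1.18-fold, 95% interval 0.01 to 0.48, adjusted p = 0.308), and 0.14 with its dim probe set averaged in. For the remaining 3 genes H6pd differed by 0.11 ± 0.08, Pgls by 0.09 ± 0.08 and Rpia by 0.0015 ± 0.10, and all 3 intervals spanned 0. H6pd was 0.18 after repeated quantile normalization and 0.063 with centred arrays. Rpia was lower in number 1 among the plumbagin arrays (-0.12) and higher among the controls (0.13). Both number-1 arrays lay above both number-2 arrays in 6 of the 8 genes, all but Pgls and Rpia, against 30% of all genes and 28.6% of the 8637 genes above background.

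The adjusted result turned on which genes shared the fit. Fitted on the 8637 genes above background, the same differences passed for Pgd (adjusted p = 0.0127), Idh1 (adjusted p = 0.0301) and Taldo1 (adjusted p = 0.0358), 3 of the 8, against 213 genes higher in number 1 (2.47%) and 480 lower. Over the alternatives tried, the adjusted p lay between 0.00789 and 0.208 for Pgd, 0.0231 and 0.208 for Idh1, and 0.0285 and 0.208 for Taldo1, while for Me1 it lay between 0.108 and 0.315 and for Tkt between 0.177 and 0.438. The differences themselves had 1 direction in all 12 alternatives for these 5 genes. Control 1 exceeded control 2 by more than 0.25 in 5 of the 8 genes (Pgd, Tkt, Taldo1, Me1, Idh1), against 12.8% of all genes. Plumbagin 1 exceeded plumbagin 2 by more than 0.25 in 3 of the 8 (Pgd, Taldo1, Idh1), against 10.4% of all genes. Both shares count dim genes too, while all 8 measured members lay above background.

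**Figure D3:**
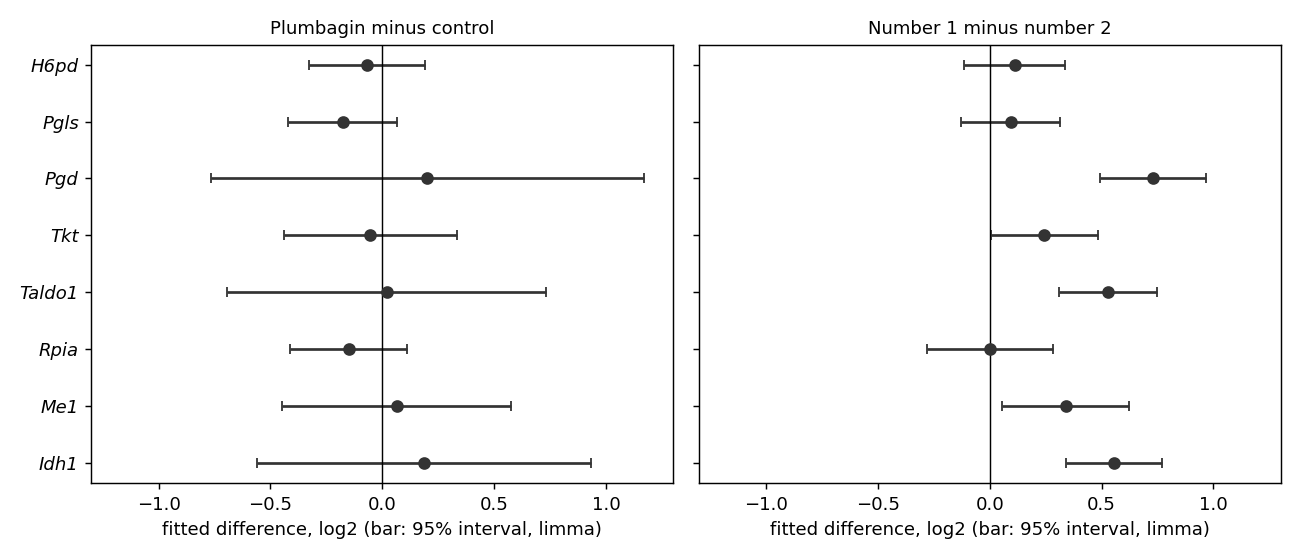
Fitted log2 differences of the 8 measured members with 95% limma intervals, plumbagin minus control on the left and number 1 minus number 2 on the right. All intervals on the left span 0, and on the right those of Pgd, Tkt, Taldo1, Me1 and Idh1 lie above 0 before any adjustment for the number of genes.

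Where a gene had several probe sets, they were compared as separate readings of 1 transcript from the same RNA, not as replicates. The 3 Pgd probe sets were higher in number 1 by 0.62, 0.73 and 0.79, and all 3 separated the numbers without overlap. After plumbagin the Pgd probe sets differed by 0.10, 0.20 and 0.23 in the mean, but the dimmest, with a mean of 7.86, differed by -0.03 between plumbagin 1 and control 1. The 2 Me1 probe sets were higher in number 1 by 0.34 and 0.25. They disagreed on plumbagin in number 1: the brighter differed by -0.06 and the dimmer, with a mean of 7.99, by 0.19, while both were higher in number 2, by 0.19 and 0.16. For Tkt the brighter probe set gave 0.24 between the numbers, and the other, with a mean of 4.27 below background, gave 0.04. The main probe sets of Pgd and Tkt carry the manufacturer's x suffix and that of Idh1 the s suffix, which mark probes that can bind more than 1 related transcript.

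**Figure D4:**
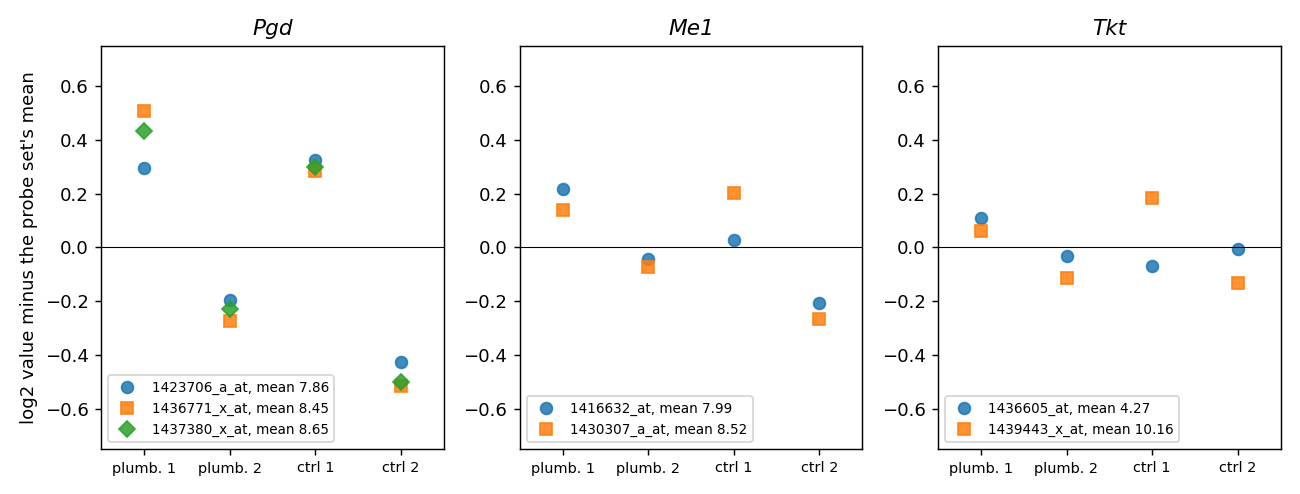
Log2 values of each Pgd, Me1 and Tkt probe set on the 4 arrays, minus that probe set's own mean, which the legend gives. The 3 Pgd probe sets lie above 0 on both number-1 arrays and below 0 on both number-2 arrays, while the dim Tkt probe set, which read 4.38 and 4.24 with plumbagin against 4.20 and 4.26 in controls, shows no such split.

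Glucose-6-phosphate dehydrogenase was also read by 2 probe sets annotated to G6pd2, an intronless copy of G6pdx, and the gene is described here after its values were seen. One lay below background on all arrays. The other, with the s suffix, had 6.35 and 6.20 on plumbagin 1 and 2, against 6.73 and 5.56 on control 1 and 2, and from which copy the RNA came cannot be told. It was higher in number 1 by 1.17 between the controls and by 0.16 between the plumbagin arrays (fitted 0.66 ± 0.27, adjusted p = 0.372). Between plumbagin and control it differed by -0.38 in number 1 and 0.64 in number 2, with groups that overlapped.

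Other genes of pentose and ribose metabolism were read from a list chosen for function with earlier results of these data known. Of its 15 genes 14 were measured, and 0 passed for plumbagin or for number, with medians of -0.05 and 0.06. The smallest p-values for number belonged to enzymes that turn ribose 5-phosphate into the nucleotide precursor PRPP: Prps1 was 0.53 ± 0.12 and Prps2 0.38 ± 0.09 higher in number 1, and their associated protein Prpsap1 0.39 ± 0.09 (adjusted p = 0.214, 0.214 and 0.220). Prps1 passed in the fit on genes above background (adjusted p = 0.0492), with a range from 0.0390 to 0.328 over its alternatives. Tigar, a bisphosphatase that sends glucose carbon toward the pentose pathway, differed by -0.29 ± 0.12 between number 1 and number 2, and by -0.10 with its probe sets averaged (adjusted p = 0.604). For plumbagin the smallest p-values were those of Pgm2 (-0.17 ± 0.14), Dera (-0.14 ± 0.12), Idnk (-0.14 ± 0.13) and Shpk (-0.08 ± 0.09, below background). Without control 1 the differences of Pgm2, Dera and Shpk were -0.010, -0.0053 and -0.030, and without control 2 they were -0.32, -0.27 and -0.12. Dera was -0.059 with its probe sets averaged.

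Of 12 genes listed by name as other sources of NADPH or NADP, 10 were measured and 0 passed in either fit. Their medians were 0.02 for plumbagin and 0.14 for number. Which cofactor each enzyme uses in these cells was not measured, for the malic enzyme Me2 among them. Of the 10, 8 were higher in number 1, against 59.6% of all genes, and 2 were lower, Aldh1l2 and the malic enzyme gene Me2. Me2, named after its values were seen, differed by -0.25, by -0.53 between the plumbagin arrays and by 0.03 between the controls. Aldh1l2, the mitochondrial folate dehydrogenase, had 8.27 and 8.45 in number 1 (plumbagin 1 and control 1), against 9.24 and 9.35 in number 2 (plumbagin 2 and control 2), a difference of -0.93 ± 0.08 (adjusted p = 0.167, and from 0.00265 to 0.208 over its alternatives). Mthfd1, a cytosolic folate dehydrogenase, was 0.31 ± 0.08 higher in number 1, Nnt, the mitochondrial transhydrogenase, 0.28 ± 0.08, and Glud1 0.24 ± 0.10, of which the plumbagin arrays alone gave 0.11 and the controls alone 0.38. For plumbagin the smallest p-values were those of the NAD kinases Nadk2 (0.13 ± 0.09) and Nadk (-0.18 ± 0.15), Aldh1l1 (0.18 ± 0.16, below background) and Glud1 (-0.16 ± 0.15). Nadk2 was 0.064 without plumbagin 1, 0.20 without plumbagin 2 and 0.047 with its probe sets averaged.

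Of 19 NADPH-consuming enzymes, 14 were measured and 0 passed in either fit, with medians of 0.05 for plumbagin and 0.18 for number. Gsr, glutathione reductase, had 7.56 and 7.56 in number 1 (plumbagin 1 and control 1), against 6.81 and 6.65 in number 2 (plumbagin 2 and control 2), a difference of 0.83 ± 0.09 (adjusted p = 0.167, and from 0.00517 to 0.208 over its alternatives). Fasn, fatty acid synthase, was 0.44 ± 0.08 higher in number 1, Dhcr7, a sterol reductase, 0.44 ± 0.10, and Txnrd1, cytosolic thioredoxin reductase, 0.38 ± 0.09. For plumbagin, Blvrb, a flavin and biliverdin reductase, differed by 0.24 ± 0.08 with both plumbagin arrays above both controls (unadjusted p = 0.0425, adjusted p = 1). Nqo1, the NAD(P)H quinone reductase, lay below background and differed by 0.18 ± 0.12, Txnrd2 by -0.14 ± 0.09 and Dhcr7 by 0.25 ± 0.23. Nqo1 was 0.31 without control 1 and 0.054 without control 2, and Txnrd2 was -0.070 without plumbagin 1 and -0.21 without plumbagin 2.

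**Figure D5:**
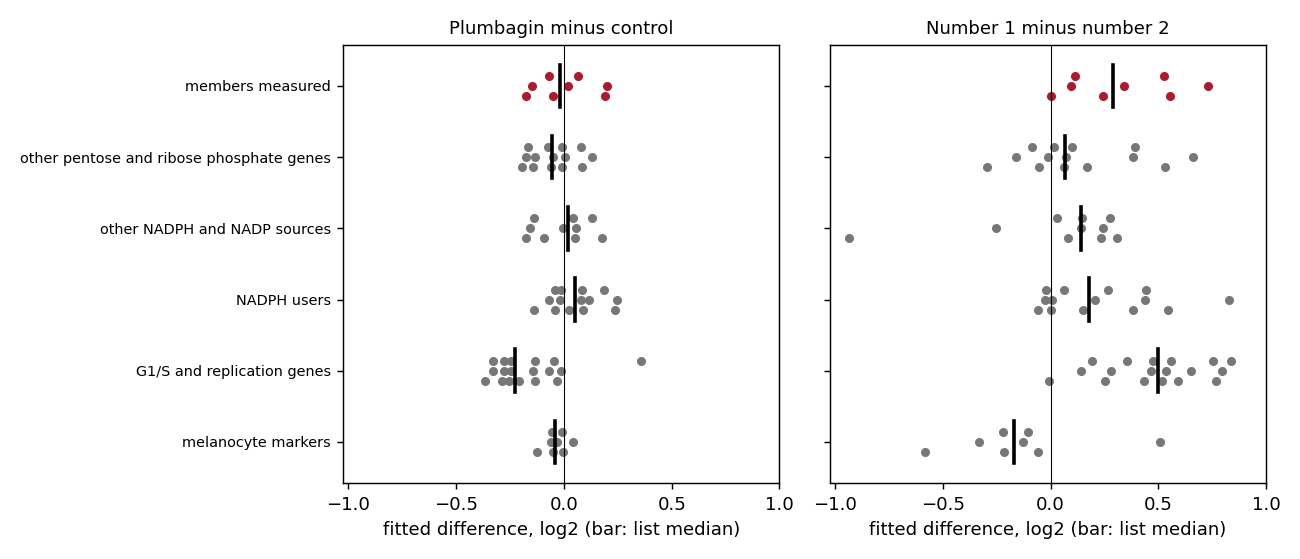
Fitted log2 differences of single genes (points) and list medians (bars), plumbagin minus control on the left and number 1 minus number 2 on the right, for the 8 measured members and 5 other lists. The members' median is -0.02 on the left and 0.29 on the right, where the G1/S list has a median of 0.50 and the melanocyte markers -0.17.

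Among 18 genes of S-phase entry and replication, 17 were higher in number 1, with a median of 0.50, and 12 had an unadjusted p under 0.05, against 59.6% of all genes higher in number 1 and 7.56% higher at that p. Of genes above background 50.0% were higher in number 1, and 2347 of 8637 had such a p in either direction. After plumbagin 17 of the 18 had a lower mean and 1 a higher. Of all genes 44.9% had a higher mean, and of genes above background, where all 18 lay, 34.9%. The list's median was -0.23, against -0.01 over all genes and -0.05 over genes above background. Of the 18, 14 were lower in both numbers. Their list's medians were -0.25 in number 1 and -0.12 in number 2, against -0.11 and -0.0016 over genes above background. None passed the adjusted test. Of the 8 melanocyte markers 7 were lower in number 1, with a median of -0.17, and 1, Mlana, was 0.51 higher. All 8 lay above background, where 50.0% of genes were higher in number 1. The part of either list in the members' differences was not tested. The signal ratio of the 3′ to the 5′ beta-actin control probe sets, a sign of RNA integrity, was 0.56 and 0.47 (log2) on plumbagin 1 and control 1, against 0.52 and 0.50 on plumbagin 2 and control 2. It did not separate the numbers, but both plumbagin arrays were above both controls. The same ratio for Gapdh was 0.0051 and -0.028 on plumbagin 1 and 2, against -0.0195 and 0.01 on control 1 and 2, and these groups overlapped. The part of RNA integrity in the members' differences between plumbagin and control was not tested.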

How the data were processed

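Total RNA was measured on 3′ expression arrays, 1 sample per array. The authors deposited log2 expression values per probe set, and RMA, Affymetrix Expression Console and, besides these, Transcriptome Analysis Console are named in the submitters' processing notes, with no version or order. RMA makes array distributions alike and compresses dim signals. The table held 45141 probe sets, 104 of them controls. The platform annotation, which can be old, gave 28898 probe sets 1 gene symbol and 551 several, and the remainder were not named here. Symbols were updated through Entrez numbers. Each gene was represented by its brightest probe set, by the mean of 4 arrays. Groups and numbers came from the sample titles. Differences were fitted over all genes in limma 3.58.1 (lmFit, eBayes; R 4.3.3), two-sided, with Benjamini-Hochberg adjustment and a threshold of 0.05. Treatment had no covariate, and number was fitted with treatment as covariate. The code was tested on simulated data. With simulated spreads equal to the shrunken variances of these arrays, the number fit called more unmoved genes than its threshold allows, so its calls are less secure than their adjusted p states. Precision was limited by 2 arrays per group. All members are named, and in the other lists up to 4 genes with the smallest p in each fit. The members and lists were chosen with earlier results of these data known. Alternatives were other probe set rules, 2 filters, 3 normalizations, 2 eBayes settings, the number as a block, and fewer arrays.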

Additional observations from a re-analysis of the deposited data

How the results depend on the processing

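For plumbagin minus control, 0 genes and 0 members passed in every one of the 14 alternatives, the replicate number as a block included (0 genes, members' median -0.016). With that block, the unadjusted limma p was 0.0755 for Pgd and 0.0715 for Idh1 (adjusted p = 0.919 for each), against 0.603 and 0.531 without it. It was 0.0894 for Pgls and between 0.21 and 0.809 for the other members. The members' median lay between -0.20 and 0.20. The numbers could not be shown to pair the samples, with only 2 pairs. The deviations of same-numbered arrays correlated at 0.536 over all genes and at 0.618 over genes above background. With each array left out in turn, Pgd ranged from -0.20 to 0.60, Taldo1 from -0.26 to 0.30, Me1 from -0.17 to 0.30, Idh1 from -0.10 to 0.47, Tkt from -0.21 to 0.105, H6pd from -0.15 to 0.012, G6pd2 from -0.45 to 0.71, Idnk from -0.29 to 0.0072, Aldh1l1 from -0.022 to 0.38, Dhcr7 from -0.042 to 0.53, Nadk from -0.37 to 0.015 and Glud1 from -0.35 to 0.032, the lone array being assumed to vary like the other group. Leaving out 1 array unbalances the numbers, so these ranges include the gap between number 1 and number 2. Tkt was 0.011 with probe sets averaged, where its dim probe set counts equally. For number 1 minus number 2, with 0 genes called at first, 693 genes and 3 members passed among genes above background, 801 and 3 among genes above the median, 212 and 1 (Pgd) after cyclic loess, and 2 and 0 with a trend in eBayes, while the fits on probe set means, single probe sets, repeated quantile normalization, centred arrays, robust eBayes and no covariate called 0. The filters test fewer genes and also re-estimate the spread that eBayes shares between genes. For Pgd the SE was 0.083 over all genes and 0.128 on genes above background. Its unadjusted p in these limma fits was 0.00117 and 0.000226. The 95% interval was 0.493 to 0.965 over all genes and 0.443 to 1.015 on genes above background. The smaller p thus came with a wider interval, not with a more precise difference. The cause of the other moves was not tested. Rpia was -0.048 with centred arrays and -0.12 in the plumbagin arrays alone. Signal over background did not limit the measured members, all above it, whereas Tktl1, Shpk, Nqo1, Aldh1l1 and the second Tkt probe set were below it.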
